A study of Mus musculus with 4 samples.

Results

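The BCL2 family was followed here through 10 genes that set whether a cell opens its outer mitochondrial membrane, in OASIS deficient and wild-type mouse astrocytes in culture. The 10 genes were chosen by name from the family as NOXA and its nearest partners in apoptosis control, with earlier results of these data known. All 10 were found among the 55487 genes measured. They are 4 BH3-only genes (Pmaip1, which encodes NOXA; Bbc3, which encodes PUMA; Bcl2l11, which encodes BIM; and Bid), 2 effectors (Bax and Bak1) and 4 pro-survival genes (Bcl2, Bcl2l1, Bcl2l2 and Mcl1).

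BH3-only proteins are the sensors of the family: stress raises or activates them, and they bind the pro-survival proteins or the effectors through a short BH3 helix. The effectors BAX and BAK1 form pores in the outer membrane once activated, cytochrome c then leaves the mitochondrion, and caspases are switched on. Pro-survival proteins hold effectors and BH3-only proteins in check, and NOXA binds chiefly MCL1. Pmaip1, Bbc3 and Bax are long-known target genes of p53, the factor that DNA damage stabilises, and doxorubicin damages DNA by trapping topoisomerase II.

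The 4 groups, of 1 library each, were OASIS deficient astrocytes given doxorubicin, wild-type astrocytes given doxorubicin, OASIS deficient astrocytes without treatment and wild-type astrocytes without treatment. OASIS is the product of Creb3l1, a membrane-bound bZIP factor that is cut in the Golgi and moves to the nucleus. All were primary cultures in medium with serum, and the treated ones were past confluence by 5 days when they met 1 µg/ml doxorubicin for 1 h, with collection 24 h after that. The labels give neither the strain, the age, the number of animals nor the deletion that makes the deficient cells, so each group stands for 1 culture of unknown origin and a comparison of single libraries carries no p-value.

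Total estimated counts ran from 17481188 to 22559613 per library. Creb3l1 had 235 counts in deficient and 636 in wild-type doxorubicin cells, and 260 in deficient and 966 in wild-type untreated cells, so it was lower but not absent under the deficient label. Xist had 2742 and 2547 counts in the deficient and wild-type doxorubicin libraries, against 0 and 1 in the deficient and wild-type untreated libraries, while 4 Y-linked genes had 0 counts in both doxorubicin libraries. Treatment and sex of the cells therefore cannot be told apart in any comparison of doxorubicin with untreated cells. All 10 astrocyte markers were detected in every library, with summed levels of 10019 and 3947 CPM (counts scaled by library size with TMM factors) in deficient and wild-type doxorubicin cells and 11322 and 4041 CPM in deficient and wild-type untreated cells. Much of this difference was Gfap alone, at 5168 and 1120 CPM in deficient and wild-type doxorubicin cells and 6589 and 1140 CPM in deficient and wild-type untreated cells. Summed oligodendrocyte lineage markers were at 1069 and 346 CPM in deficient and wild-type doxorubicin cells and at 1073 and 473 CPM in deficient and wild-type untreated cells, with Mog at 0 in both wild-type libraries and Sox10 and Mobp at 0 in wild-type doxorubicin cells. Of these lists, 8 of 10 astrocyte and 9 of 10 oligodendrocyte lineage markers were called higher in deficient cells, with none called lower, and so were 4 of 8 neuron markers. Of all genes, 12.6% were called higher in deficient cells. Summed microglia markers were at 625.7 CPM with doxorubicin and 951.5 CPM without in deficient cells, and at 717.9 CPM with doxorubicin and 998.2 CPM without in wild-type cells. All 10 were below the untreated level in both genotypes, and 1 of them, C1qb, named after its value was seen, was called lower with doxorubicin by edgeR (adjusted p = 0.0377), with 7 lower at an unadjusted p under 0.05. Over the 4 libraries, summed neuron markers were at 218 to 453 CPM, fibroblast and meningeal markers at 189 to 361 CPM and endothelial markers at 3.66 to 11.6 CPM. The 10 mitosis genes were at 1348 and 83.5 CPM in deficient and wild-type doxorubicin cells and at 902 and 63.1 CPM in deficient and wild-type untreated cells, and all 10 were called higher in deficient cells. By genotype, edgeR called 2 of the 10 microglia markers lower and 1 higher, beside 10.6% of all genes lower and 12.6% higher. Markers of cell types and of cell division thus moved with genotype, those of microglia in both directions, and microglia markers also moved with treatment. The part of all these markers in the values below was not tested. In cultures measured in bulk, fewer cells of a type and less RNA per cell cannot be told apart.

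Promoter windows were read from RefSeq on GRCm38.p6, which matched 9 of the 10 genes, all but Pmaip1. Each window spans 250 bases before to 50 after a transcription start, 300 bases in all. 3 are shown: those of Bbc3 and Bax, which were lower in deficient cells, and that of Bcl2, which was not called. They lie at chr7:16309333-16309632 on the plus strand for the first of 3 Bbc3 starts, chr7:45466849-45467148 on the minus strand for Bax and chr1:106714241-106714540 on the minus strand for Bcl2. Capitals mark the p53 decamer motif, of which a full response element holds a pair, and the letters TGACG or their complement CGTCA, the core of the CRE that bZIP factors of the CREB family recognise.
Bbc3: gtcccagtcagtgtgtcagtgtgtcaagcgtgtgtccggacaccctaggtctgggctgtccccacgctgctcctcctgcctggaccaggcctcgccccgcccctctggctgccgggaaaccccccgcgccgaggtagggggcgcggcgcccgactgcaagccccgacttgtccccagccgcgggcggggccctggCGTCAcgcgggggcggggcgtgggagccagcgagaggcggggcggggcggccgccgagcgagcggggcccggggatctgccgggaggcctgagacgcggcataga
Bax: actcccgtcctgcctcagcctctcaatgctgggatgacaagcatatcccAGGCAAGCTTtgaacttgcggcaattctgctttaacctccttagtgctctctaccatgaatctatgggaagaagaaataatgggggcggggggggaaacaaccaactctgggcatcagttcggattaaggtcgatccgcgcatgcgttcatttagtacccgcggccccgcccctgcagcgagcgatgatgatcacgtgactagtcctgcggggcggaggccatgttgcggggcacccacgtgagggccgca
Bcl2: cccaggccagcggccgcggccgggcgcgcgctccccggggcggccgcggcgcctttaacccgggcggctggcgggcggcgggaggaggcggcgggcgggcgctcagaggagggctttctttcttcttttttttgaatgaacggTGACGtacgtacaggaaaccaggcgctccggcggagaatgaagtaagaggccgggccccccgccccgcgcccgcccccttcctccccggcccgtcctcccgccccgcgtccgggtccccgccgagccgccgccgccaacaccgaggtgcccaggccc

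The single p53 decamer among the 14 windows of the 9 genes, several of which have more than 1 start, stood in Bax, at position -201 from the start. 8.36% of all 32851 mouse promoter windows hold at least 1 such decamer on either strand, and no window of these genes held a full p53 element, which 0.0731% of all windows do. TGACG stood in 1 Bbc3 window at position -55, in Bcl2 at -107 and in Mcl1 at 16, so in 3 of 14 windows, a share near the 20.8% of all windows, with both strands searched. It was thus present in genes that fell in deficient cells and in 1 that was not called. CACGTG, the E-box that MYC and related factors bind, occurred in Bax at -9 and 35 and in another Bbc3 window at -64, so in 2 of 14 windows, against 7.15% of all windows. The windows of Bcl2l11, Bid, Bak1, Bcl2l1 and Bcl2l2 held none of these 3 motifs. These are matches of letters within short windows and show no binding.

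Of the 10 genes, 7 fell in OASIS deficient cells and none rose: all 4 BH3-only genes, the effector Bax, and the pro-survival genes Bcl2l1 and Mcl1. Pmaip1 fell by far the most of the 10, to 1.81 and 2.15% of the wild-type level with doxorubicin and without treatment, whereas Bax, Bcl2l1 and Mcl1 lay between 50.2 and 63.5% of wild type. These calls come from 1 additive model of genotype and treatment over the 4 libraries, with the quasi-likelihood test of edgeR and p-values adjusted over 15596 genes by Benjamini-Hochberg at a threshold of 0.05. In that model 10.6% of all genes were called lower in deficient cells and 12.6% higher, with a median log2 fold change of -0.84 over the 10 genes and -0.01 over all genes. The 10 were chosen with earlier results of these data known, so the count of 7 is no independent evidence of direction. Of 11 further family genes with a mean of at least 1 CPM, edgeR called none lower, and their median log2 fold change was 0.07. DESeq2 called 6 of the 10 lower and limma-voom 7, and neither called any higher, as edgeR at an unadjusted p under 0.05 did not. The model has 1 residual degree of freedom beside 14.3 prior ones borrowed from all genes, so its p-values rest mostly on a spread shared over genes. They do not measure the spread between cultures of 1 genotype, since no group has a replicate.

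**Figure D1:**
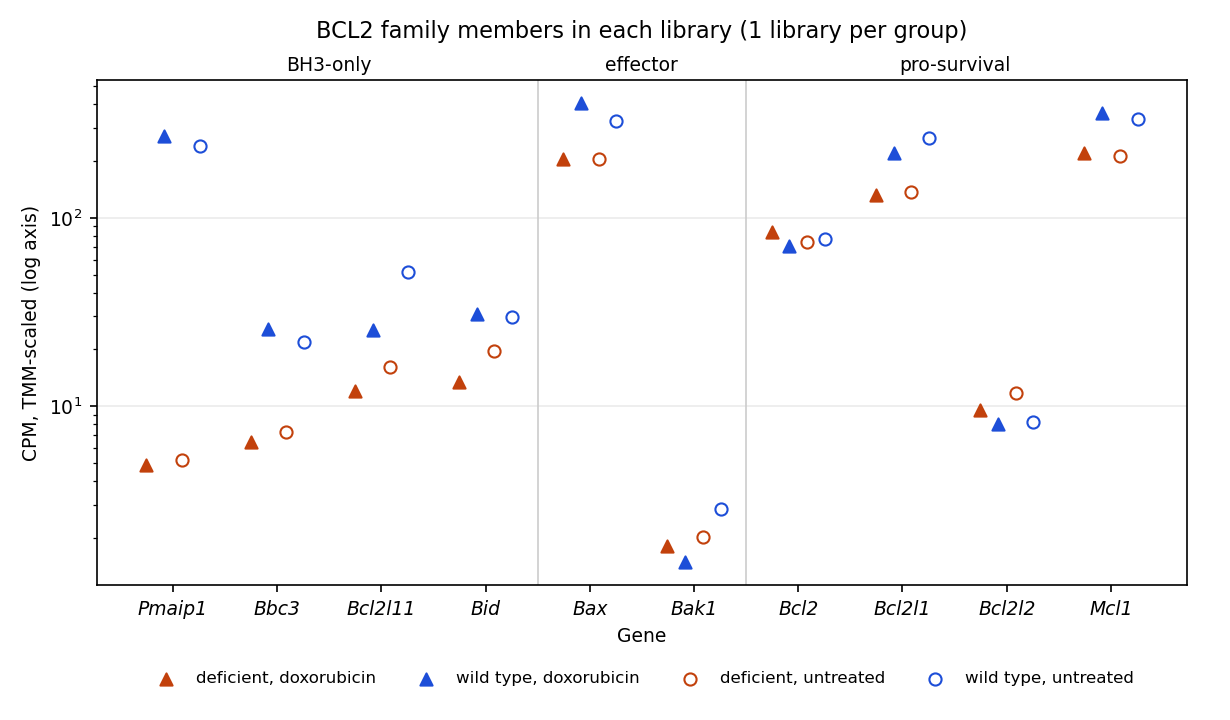
Level of each of the 10 genes in CPM on a log axis, 1 point per library, with deficient cells in orange, wild-type cells in blue, filled triangles for doxorubicin and open circles for untreated libraries. Pmaip1 sits near 5 CPM in both deficient libraries, against 270.6 and 240.1 CPM in the wild-type ones, while the Bcl2 points lie together between 70.8 and 83.9 CPM.

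Among the BH3-only genes, Pmaip1 had the lowest genotype ratios. It had 97 counts (4.90 CPM) in deficient and 6197 counts (270.6 CPM) in wild-type doxorubicin cells, and 89 counts (5.17 CPM) in deficient and 4782 counts (240.1 CPM) in wild-type untreated cells. Both deficient libraries were low and both wild-type libraries high, with no overlap. Deficient cells held 1.81% of the wild-type level with doxorubicin (95% counting interval 1.47 to 2.21%) and 2.15% (1.73 to 2.66%) without treatment. These log2 ratios of CPM + 1, -5.52 and -5.29, ranked 3 and 4 from the lowest of 15596 genes. The edgeR genotype log2 fold change was -5.66 ± 0.177 (SE, adjusted p = 2.96e-11).

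Bbc3, whose product PUMA binds every pro-survival member, had 6.47 CPM in deficient and 25.8 CPM in wild-type doxorubicin cells, and 7.26 CPM in deficient and 22.0 CPM in wild-type untreated cells. Deficient libraries were again below both wild-type ones, at 25.1% (20.6 to 30.5%) of wild type with doxorubicin and 32.9% (26.8 to 40.3%) without treatment. The edgeR log2 fold change was -1.80 ± 0.349 (SE, adjusted p = 0.00141).

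Bcl2l11, whose product BIM activates effectors directly, had 12 CPM in deficient and 25.3 CPM in wild-type doxorubicin cells, and 16.2 CPM in deficient and 51.5 CPM in wild-type untreated cells. The wild-type untreated library was the highest, and the wild-type doxorubicin library still lay above both deficient ones. The edgeR genotype log2 fold change was -1.38 ± 0.273 (SE, adjusted p = 0.00164), with pair ratios of -1.02 with doxorubicin and -1.61 without treatment. Foxo3, which encodes a factor known to drive Bcl2l11, was called lower too (-1.16 ± 0.235, SE, log2, edgeR adjusted p = 0.00199). A link between Foxo3 and Bcl2l11 was not tested.

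Bid, which caspase-8 cuts to couple death receptors to mitochondria, had 13.4 CPM in deficient and 31.0 CPM in wild-type doxorubicin cells, and 19.6 CPM in deficient and 29.6 CPM in wild-type untreated cells. Its log2 ratio was -1.15 with doxorubicin and -0.57 without treatment, and the edgeR log2 fold change was -0.90 ± 0.284 (SE, adjusted p = 0.0312). This call is the weakest of the 7: the adjusted p was 0.0788 by DESeq2, 0.0766 with no minimum level and 0.0603 without treatment in the model. Bid also shares 628 exonic bases with Bcl2l13 on the other strand, and the library kit does not mark strand, so reads there cannot be assigned to either gene with certainty.

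**Figure D2:**
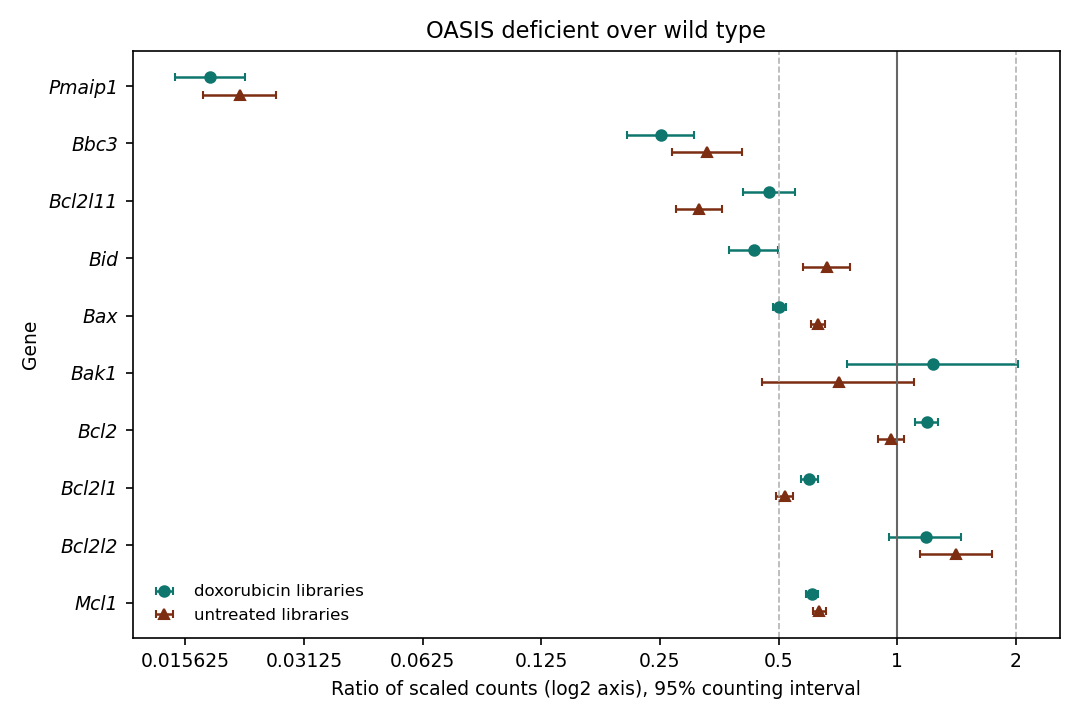
Ratio of scaled counts, deficient over wild type, for each gene on a log2 axis, with circles for the doxorubicin and triangles for the untreated libraries and bars for 95% counting intervals; dashed lines mark 2-fold. Pmaip1 lies near 0.02 in both, the other BH3-only genes between 0.251 and 0.662, and Bak1, Bcl2 and Bcl2l2 between 0.710 and 1.41.

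The effectors differed from each other. Bax had 204.8 CPM in deficient and 407.5 CPM in wild-type doxorubicin cells, and 205.8 CPM in deficient and 327.1 CPM in wild-type untreated cells. Both deficient libraries were level with each other and below both wild-type libraries, at 50.2% (48.4 to 52.1%) of wild type with doxorubicin and 62.9% (60.4 to 65.5%) without treatment. The edgeR log2 fold change was -0.83 ± 0.119 (SE, adjusted p = 0.000103). Bak1, the second pore former, was low, with 36 counts in deficient and 34 in wild-type doxorubicin cells, and 35 in deficient and 57 in wild-type untreated cells. The deficient and wild-type values overlapped, and its fold change of -0.10 ± 0.973 (SE, log2, edgeR adjusted p = 0.957) leaves large changes undetectable at this depth. Bak1 also shares exonic bases with Ggnbp1 on the other strand, at 437 and 177 bases for the 2 annotated identifiers of that name, so its few reads are uncertain.

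Of the pro-survival genes, 2 fell. Bcl2l1, which encodes BCL-XL and spans chr2:152780668-152831728 on the minus strand, had 131.8 CPM in deficient and 219.9 CPM in wild-type doxorubicin cells, and 137.4 CPM in deficient and 265.4 CPM in wild-type untreated cells. Deficient libraries lay below both wild-type libraries, at 59.9% (57.1 to 62.8%) of wild type with doxorubicin and 51.8% (49.3 to 54.4%) without treatment, and the edgeR log2 fold change was -0.84 ± 0.125 (SE, adjusted p = 0.000135). Mcl1, whose short-lived product is the main partner of NOXA and whose gene spans chr3:95658788-95663176 on the plus strand, had 220.2 CPM in deficient and 362.2 CPM in wild-type doxorubicin cells, and 212.2 CPM in deficient and 334.1 CPM in wild-type untreated cells. Its groups did not overlap either, with a log2 fold change of -0.69 ± 0.112 (SE, edgeR adjusted p = 0.000323). Bcl2, the founding member of the family, had 83.9 CPM in deficient and 70.8 CPM in wild-type doxorubicin cells, and 74.4 CPM in deficient and 77.3 CPM in wild-type untreated cells, so the genotypes overlapped (log2 fold change 0.10 ± 0.165, SE, edgeR adjusted p = 0.740). Bcl2l2, which encodes BCL-W, had 9.50 CPM in deficient and 8.08 CPM in wild-type doxorubicin cells, and 11.7 CPM in deficient and 8.28 CPM in wild-type untreated cells. Both deficient values were the higher ones in CPM but not in deposited TPM, where the log2 ratios were -0.18 with doxorubicin and -0.12 without treatment, and the difference did not pass the test (0.36 ± 0.424, SE, log2, edgeR adjusted p = 0.602), and Bcl2l2 shares 594 exonic bases with Gm20521 on the same strand.

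By size alone, 3 of the 10 genes were at least 2-fold lower in deficient than in wild-type cells without treatment (Pmaip1, Bbc3 and Bcl2l11), against 10.2% of the 15596 genes, and none was at least 2-fold higher, against 9.79%. With doxorubicin 4 were at least 2-fold lower, the same 3 and Bid, against 9.55% of all genes, and none at least 2-fold higher, against 10.7%. With 5 CPM added in place of 1 CPM, 2 of the 10, Pmaip1 and Bbc3, were past 2-fold with doxorubicin. Over 7 alternative settings, 2 to 5 were at least 2-fold lower with doxorubicin and 3 to 4 without treatment. Bax with doxorubicin lay just short of that line at a log2 ratio of -0.99. The median log2 ratio over the 10 genes was -0.86 with doxorubicin and -0.66 without treatment, beside 0.02 and -0.03 over all genes. These comparisons share no library, but each rests on 1 culture per genotype.

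**Figure D3:**
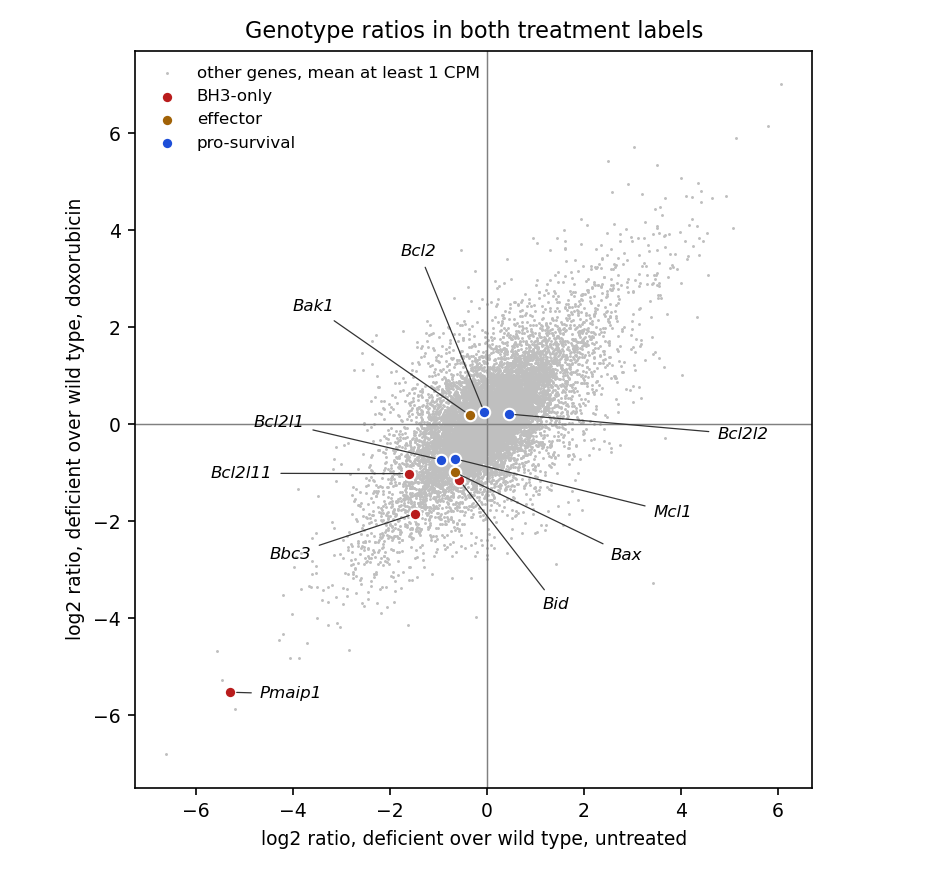
log2 ratio of deficient over wild type without treatment on the x axis and with doxorubicin on the y axis, 1 point per gene with a mean of at least 1 CPM, with the 10 family genes in color by role. Pmaip1 lies at -5.29 and -5.52 at the lower left end of the cloud, and Bak1, Bcl2 and Bcl2l2 lie near the crossing of the axes.

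To compare genes with each other, the deposited TPM values were used, which account for transcript length. Bax was the most abundant of the 10 in every library, at 400.5 TPM in deficient and 825 TPM in wild-type doxorubicin cells and at 394 TPM in deficient and 706.6 TPM in wild-type untreated cells. Mcl1 came second in every library, at 134 to 242 TPM, and Bak1 last, at 0.961 to 2.15 TPM. Bax thus exceeded Bak1 by 297- to 858-fold in level over the 4 libraries. Bcl2l1 held 77.8 and 131 TPM in deficient and wild-type doxorubicin cells and 71.7 and 165 TPM in deficient and wild-type untreated cells, while Bcl2 stayed at 17.7 to 21.6 TPM.

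Pmaip1 changed its place in the order. It held rank 9 of 10 in both deficient libraries, at 2.58 TPM with doxorubicin and 3.18 TPM without treatment, but rank 3 in wild-type doxorubicin cells at 161 TPM and rank 4 in wild-type untreated cells at 144 TPM. It made up 11.1% of the summed BH3-only TPM in deficient and 72.5% in wild-type doxorubicin cells, and 11.2% in deficient and 67.5% in wild-type untreated cells. The ratio of Pmaip1 to Mcl1 TPM was 0.0182 in deficient and 0.677 in wild-type doxorubicin cells, and 0.0237 in deficient and 0.594 in wild-type untreated cells. Summed BH3-only over summed pro-survival TPM was 0.0956 in deficient and 0.566 in wild-type doxorubicin cells, and 0.125 in deficient and 0.491 in wild-type untreated cells. Without Pmaip1 the same ratio was 0.0850 in deficient and 0.156 in wild-type doxorubicin cells, and 0.111 in deficient and 0.159 in wild-type untreated cells. These BH3-only sums hold the 4 chosen genes and leave out Bad, a further BH3-only gene. Bad was at 124.8 and 127.9 TPM in deficient and wild-type doxorubicin cells and at 120.8 and 127.5 TPM in deficient and wild-type untreated cells. The 4 genes summed to 23.3 and 28.4 TPM in deficient cells with doxorubicin and without. With Bad added, summed BH3-only over summed pro-survival TPM would therefore differ far less by genotype. The share of Pmaip1 would be smaller in every library, but still far lower in deficient than in wild-type cells. The pro-survival sums likewise leave out Bcl2a1a, Bcl2a1b and Bcl2a1d, further pro-survival genes. Bcl2a1b, the highest of these, was at 37.3 and 47.0 TPM in deficient and wild-type doxorubicin cells. Without treatment it was at 68.0 TPM in deficient and 78.1 TPM in wild-type cells. All these shares and ratios are of RNA levels with 1 library each, and protein was not measured.

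**Figure D4:**
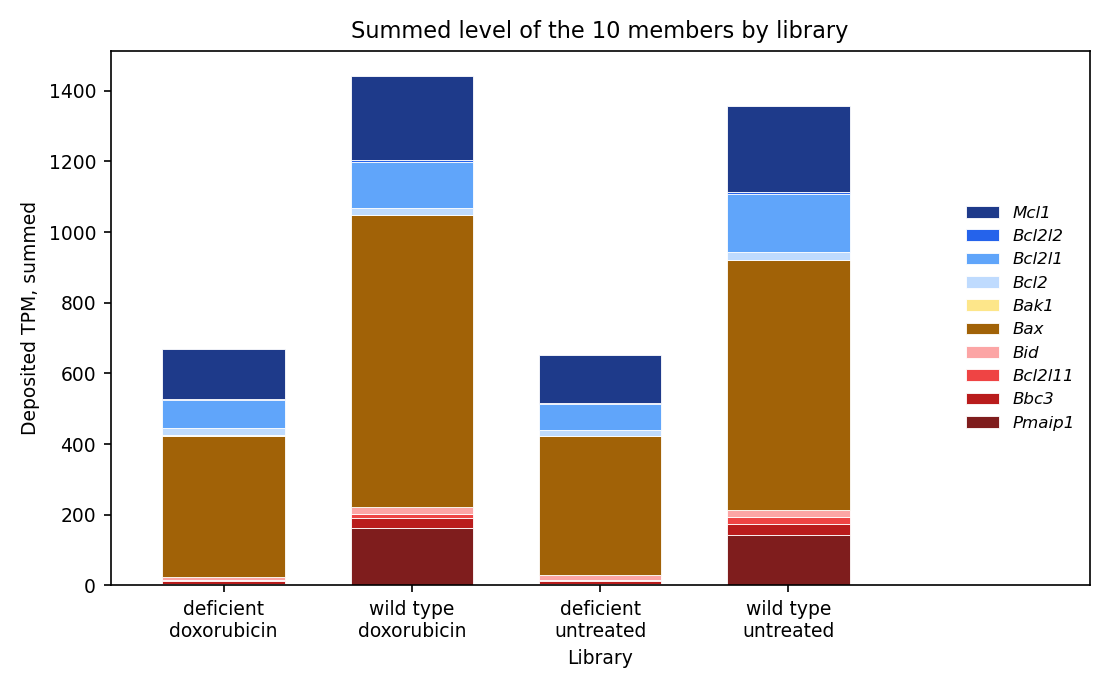
Deposited TPM of the 10 genes stacked by library, with BH3-only genes in red at the bottom, effectors in brown and yellow and pro-survival genes in blue. The stacks reach 668 TPM in deficient and 1441 TPM in wild-type doxorubicin cells, and 651 TPM in deficient and 1355 TPM in wild-type untreated cells, with Bax as the largest block and the dark red Pmaip1 block visible only in wild-type cells.

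No difference between doxorubicin and untreated cells passed the test among the 10 genes. edgeR called none of the 10 for treatment in either direction, against 0.141% of all genes lower and 0.0192% higher; DESeq2 and limma-voom called none either, and 1 gene, Bcl2l11, was lower at an unadjusted p under 0.05. By size, none of the 10 was at least 2-fold lower or higher with doxorubicin in wild-type cells, against 5.45% of all genes lower and 4.08% higher. In deficient cells none was at least 2-fold lower or higher either, against 1.93% and 1.58% of all genes. Pmaip1 was at 94.9% (70.4 to 127.9%) of the untreated level in deficient cells and at 112.7% (108.5 to 117.1%) in wild-type cells. Bbc3 was at 89.1% (69.1 to 115.0%) in deficient and 116.9% (103.1 to 132.6%) in wild-type cells.

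Bax was at 99.5% (95.1 to 104.1%) of the untreated level with doxorubicin in deficient cells and at 124.6% (120.7 to 128.6%) in wild-type cells. Bcl2l11 had 12 CPM with doxorubicin and 16.2 CPM without in deficient cells, and 25.3 CPM with doxorubicin and 51.5 CPM without in wild-type cells. This is 73.9% (61.9 to 88.2%) in deficient and 49.1% (44.3 to 54.4%) in wild-type cells. In deposited TPM the deficient libraries did not differ in this way, at 4.25 with doxorubicin and 4.18 without, while the wild-type ones held 10.5 with doxorubicin and 19.2 without. On the log2(CPM + 1) scale the wild-type value rounds to -1.0 and lay just short of 2-fold, a line it passed under total-count scaling or with 0.5 CPM added, and the additive edgeR value was -0.74 ± 0.270 (SE, adjusted p = 0.75). Bid was at 68.4% (58.0 to 80.6%) with doxorubicin in deficient cells and at 104.7% (93.7 to 117.0%) in wild-type cells. Of the pro-survival genes, Bcl2l1 was at 95.9% (90.6 to 101.4%) in deficient and 82.9% (79.7 to 86.1%) in wild-type cells, and Mcl1 at 103.8% (99.3 to 108.4%) in deficient and 108.4% (104.9 to 112.0%) in wild-type cells. In deposited TPM the deficient Bcl2l1 and wild-type Mcl1 log2 ratios had the other sign, at 0.12 and -0.02. Bcl2 was at 112.8% (104.8 to 121.4%) in deficient and 91.6% (85.3 to 98.2%) in wild-type cells. Bcl2l2 was at 81.4% (66.4 to 99.8%) in deficient and 97.5% (78.6 to 121.0%) in wild-type cells, and Bak1 at 89.5% (54.6 to 146.8%) in deficient and 51.9% (32.9 to 80.7%) in wild-type cells. Several of these counting intervals leave out 100%, but they hold no variation between cultures.

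Differences of the responses, deficient minus wild type, ran from -0.58 for Bid to 0.59 for Bcl2l11 on the log2 scale and have no test, since each rests on 4 single libraries.

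**Figure D5:**
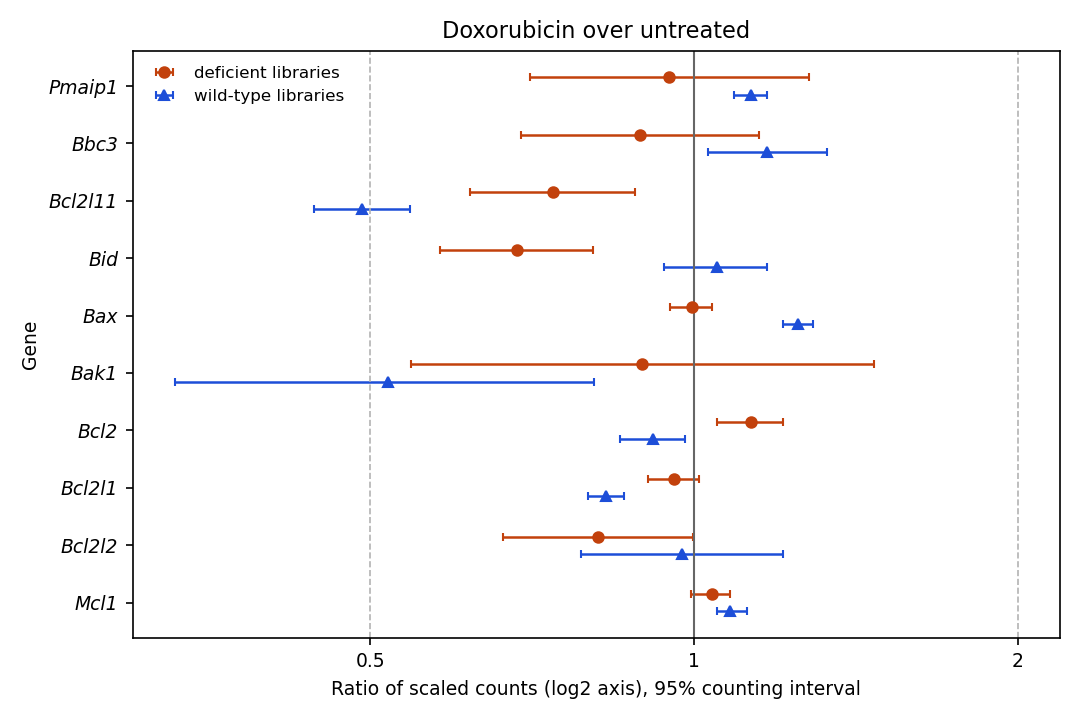
Ratio of scaled counts, doxorubicin over untreated, for each gene on a log2 axis, with circles for deficient and triangles for wild-type cells and bars for 95% counting intervals; dashed lines mark 2-fold. Only the Bcl2l11 and Bak1 intervals in wild-type cells reach the lower line, and no interval reaches the upper one.

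Beyond the 10 lay 15 further BCL2 family genes. Of these 15, 11 had a mean of at least 1 CPM, and by edgeR 1 of these rose in deficient cells, beside 12.6% of all genes. DESeq2 called 1 higher and limma-voom 2, and 3 were higher by edgeR at an unadjusted p under 0.05; none was lower by any of these. The median genotype log2 fold change of the 11 was 0.07. Bok, an effector-like member, had 20.7 CPM in deficient and 9.61 CPM in wild-type doxorubicin cells, and 22.1 CPM in deficient and 4.17 CPM in wild-type untreated cells (log2 fold change 1.74 ± 0.402, SE, edgeR adjusted p = 0.00497). Bad, a BH3-only gene whose product is controlled by phosphorylation, was at 83.5 and 80.6 CPM in deficient and wild-type doxorubicin cells and at 81.3 CPM in both untreated genotypes. Bmf, another BH3-only gene, had 2.17 and 5.85 CPM in deficient and wild-type doxorubicin cells and 3.25 and 2.51 CPM in deficient and wild-type untreated cells, and was not called. Bik had at most 33 counts in any library. The divergent member Bcl2l12 had 10.3 and 2.31 CPM in deficient and wild-type doxorubicin cells and 8.83 and 5.32 CPM in deficient and wild-type untreated cells (edgeR adjusted p = 0.0765). Bnip3 and Bnip3l, which mark mitochondria for autophagy, and Bcl2l13 were not called by edgeR. The near-identical paralogs Bcl2a1a, Bcl2a1b and Bcl2a1d were not called by edgeR either, and their reads cannot be split with certainty. Bcl2l10 and Bcl2l15 had 0 counts in all 4 libraries, below a floor of 3 counts or 0.131 to 0.174 CPM, and Hrk had 16 and 0 counts in deficient and wild-type doxorubicin cells and 8 and 0 in deficient and wild-type untreated cells. Bcl2l14 had 0 and 18 counts in deficient and wild-type doxorubicin cells and 0 and 31 in deficient and wild-type untreated cells.

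Downstream of the membrane, edgeR called 1 of 14 apoptosome and caspase genes lower and 1 higher, beside 10.6% of all genes lower and 12.6% higher. DESeq2 called 1 lower and limma-voom 2. Apaf1, the scaffold on which cytochrome c assembles caspase-9, had 12.1 CPM in deficient and 49.8 CPM in wild-type doxorubicin cells, and 9.41 CPM in deficient and 67.1 CPM in wild-type untreated cells (log2 fold change -2.43 ± 0.265, SE, edgeR adjusted p = 6.37e-06). Aifm1, named here after its value was seen, rose by 0.64 ± 0.195 (SE, log2, edgeR adjusted p = 0.0260), a call that DESeq2 did not make. Casp9 (adjusted p = 0.259) and the nuclease gene Dffb (adjusted p = 0.0941) were not called by edgeR. None of the 4 inhibitor of apoptosis genes (Xiap, Birc2, Birc3 and Birc6) was called by edgeR, DESeq2 or limma-voom, and 1 was lower at an unadjusted p under 0.05. Of the 4 outer membrane partners, Vdac3, a channel gene, rose by 0.37 ± 0.116 (SE, log2, edgeR adjusted p = 0.0284), and Vdac1, Vdac2 and Mtch2 were not called.

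Of 5 genes that control the turnover of MCL1 protein, edgeR called 1 lower and 0 higher, beside 10.6% of all genes lower and 12.6% higher. DESeq2 also called 1 lower and 0 higher, and limma-voom 1 lower and 1 higher. Fbxw7, a ubiquitin ligase subunit that marks MCL1 for destruction, fell to 30.2 CPM in deficient doxorubicin cells, against 72.4 CPM in wild-type doxorubicin cells. Without treatment it had 23.1 CPM in deficient and 50.9 CPM in wild-type cells (log2 fold change -1.20 ± 0.209, SE, edgeR adjusted p = 0.000582). The deubiquitinase gene Usp13 had 5.31 and 2.14 CPM in deficient and wild-type doxorubicin cells and 7.32 and 1.15 CPM in deficient and wild-type untreated cells, and was not called (edgeR adjusted p = 0.0716). Trim17 had 2.68 and 0.131 CPM in deficient and wild-type doxorubicin cells, the last from 3 counts, and 1.68 and 6.28 CPM in deficient and wild-type untreated cells, so its order turned round between the treatments.

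Of 10 transcription factors known to drive BH3-only genes, 3 fell by edgeR, beside 10.6% of all genes. None rose by edgeR, also at an unadjusted p under 0.05, by DESeq2 or by limma-voom. A link of these factors to the BH3-only values was not tested. Foxo3 fell by 1.16 on the log2 scale (SE 0.235, edgeR adjusted p = 0.00199) and Foxo1 by 0.63 (SE 0.141, edgeR adjusted p = 0.00414). Jun is named after its value was seen (-0.40 ± 0.113, SE, log2, edgeR adjusted p = 0.0183). Ddit3, which encodes CHOP of the unfolded protein response, was not called (edgeR adjusted p = 0.102). Trp53, the gene of p53 itself and also named after its values were seen, had 88.1 and 118.4 CPM in deficient and wild-type doxorubicin cells and 91.5 and 101.7 CPM in deficient and wild-type untreated cells (edgeR adjusted p = 0.187). Among 10 p53 targets outside the BCL2 family, 9 fell, beside 10.6% of all genes, with a median log2 fold change of -2.78, and Fas did not pass. Perp fell by 4.24 on the log2 scale (edgeR adjusted p = 4.90e-09), Eda2r by 3.77 (6.63e-09), Trp53inp1 by 3.28 (2.20e-09) and Pidd1 by 3.01 (3.08e-06). That list was drawn up with earlier results of these data known and is no independent evidence of its direction.

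The 5 protein-coding genes whose pattern over the 4 libraries was nearest to that of Pmaip1, by Euclidean distance of log2(CPM + 1) centred on each gene's mean, were Gsta1, Gm3776, Gm10800, Gm10801 and Robo3, out of 11505 genes with a mean of at least 5 CPM. Gsta1, a glutathione S-transferase gene, had 25 counts in deficient and 2329 in wild-type doxorubicin cells, and 24 in deficient and 1833 in wild-type untreated cells, at a distance of 0.03. Gm3776, on chromosome 9 like Gsta1, had 22 and 1848 counts in deficient and wild-type doxorubicin cells and 20 and 1865 in deficient and wild-type untreated cells. Gsta1 and Gm3776, and Gm10800 and Gm10801, are closely related copies, so the split of reads between them is uncertain. Robo3, an axon guidance receptor gene, had 2 and 527 counts in deficient and wild-type doxorubicin cells and 0 and 371 in deficient and wild-type untreated cells. With 4 points per gene, a small distance says only that both deficient libraries were low by a like amount on that scale. Where deficient counts are few, the added 1 CPM partly sets this amount.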

How the data were processed

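RNA was measured in 4 mouse astrocyte libraries. Total RNA was made into libraries with a SMART-Seq v4 kit, per the labels' protocols. Per the submitters' processing notes the tool was DRAGEN and the build GRCm38; version, annotation and filters on reads: not given in the sources used here. Each deposited table holds an estimated count and a TPM value per gene, per the file headers. Estimated counts held fractions in 5810 to 6451 genes per library and were rounded to whole numbers. The deposited TPM values sum to 1000000 in each library and were used to compare genes within a library.

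Symbols came from GENCODE by identifier: 55227 of 55487 matched. Counts were scaled to CPM with TMM factors of 0.98 to 1.02 (edgeR 4.0.16, R 4.3.3). Pair ratios are of CPM + 1 on the log2 scale, which understates the change of low genes, and a gene passed by size at a log2 ratio of at least 1 or at most -1 with a mean of at least 1 CPM, which all 10 genes had. Ratios have 95% intervals from the exact binomial test conditional on their summed counts. The reads carry no molecular identifiers, so these intervals, and the floor of 3 counts, cover counting error only. Standard errors were taken as the absolute log2 fold change over the square root of the quasi-likelihood F. The additive model had a common dispersion of 0.0863 and 14.3 prior degrees of freedom. DESeq2 1.42.0 and limma 3.58.1 served as alternatives, beside other scalings, pseudocounts and minimum levels. The number in each title follows treatment and marks no replicate.

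The members, the 16 other gene lists, the tests and the naming rule were chosen with earlier results of these data known. Named were all members, up to 4 genes of each list with the largest genotype ratio without treatment, every other BCL2 family gene above the minimum level, the check genes and the 5 genes nearest to Pmaip1; 1 gene under this rule is not reported here.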

Additional observations from a re-analysis of the deposited data

Results flagged for a closer look

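On the scale of TMM-scaled counts, 3 of 25 family genes scanned had doxorubicin ratios on opposite sides of 100% in the genotypes, with counting intervals that left out 100% in both. The share of all genes that would pass the same scan was not taken, so the count of 3 is no trait of the family. The difference between genotypes was not tested, since each response rests on a pair of single libraries. Bcl2 was at 112.8% (104.8 to 121.4%) of the untreated level in deficient cells and at 91.6% (85.3 to 98.2%) in wild-type cells, a difference of 0.30 on the log2 scale. Bcl2l13 was at 110.6% (100.7 to 121.6%) in deficient and 88.8% (80.6 to 97.8%) in wild-type cells, a difference of 0.31; in deposited TPM it was higher with doxorubicin in both, at 11.6 with and 10.3 without in deficient and 10.2 with and 8.30 without in wild-type cells, so its opposite directions do not hold on that scale. Bnip3l was at 90.0% (85.7 to 94.6%) in deficient and 114.6% (109.8 to 119.6%) in wild-type cells, a difference of -0.35. Bcl2 and Bnip3l kept opposite directions in deposited TPM.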

How the results depend on the processing

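The count of the 10 genes called lower in deficient cells was 6 to 7 over 7 alternatives of the additive model and 0 were called higher; of single genes, Bid alone lost its call. Without a replicate library, leaving one out leaves the additive model no residual degree of freedom, so the pair values stand in. The number in the titles follows the treatment, so the additive model, which holds treatment, is already paired by that number for genotype; without treatment in the model the Bid call is lost (adjusted p = 0.0603). Of the 10 genes, a pseudocount of 5 CPM left 2 at least 2-fold lower in deficient cells with doxorubicin. DESeq2 size factors, total counts and deposited TPM each gave 5 there, and deposited TPM gave 4 without treatment. In wild-type cells 1, Bcl2l11, was at least 2-fold lower with doxorubicin than without under total counts and with 0.5 CPM. Depth limits Bak1 most, with 34 to 57 counts. Deposited TPM shifted the median log2 ratio of all genes, deficient over wild type without treatment, to -0.21. Under deposited TPM the sign turned for Bcl2l2 by genotype (-0.18 with doxorubicin, -0.12 without), and for doxorubicin over untreated for Bcl2l11 (0.02), Bcl2l1 (0.12) and Bax (0.03) in deficient and Mcl1 (-0.02) in wild-type cells.

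Counts over all genes moved as follows; the cause was not tested beyond the setting's own construction. At 5 CPM, genes at least 2-fold lower and higher in deficient cells numbered 643 and 763 without treatment and 629 and 861 with doxorubicin; doxorubicin over untreated gave 27 and 15 in deficient and 143 and 83 in wild-type cells. A minimum mean of 5 CPM gave 880 and 1015 without treatment, 824 lower with doxorubicin, and for doxorubicin over untreated 107 and 77 in deficient and 365 and 244 in wild-type cells. With 0.5 CPM, doxorubicin over untreated gave 456 and 407 in deficient cells; with no minimum, 1024 were higher in wild-type cells. Additive doxorubicin calls, main counts 22 lower and 3 higher, were 67 and 17 by limma-voom, 73 and 26 at a minimum of 5 CPM, 10 lower with no minimum, 13 and 0 without X and Y, 0 and 0 without genotype in the model, and 6 higher by DESeq2.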
